A study of Mus musculus with 10 samples.

Results

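Transcript levels of 10 genes of the circadian clock were examined in whole melanomas: Arntl (which encodes BMAL1), Clock, Per1, Per2, Per3, Cry1, Cry2, Nr1d1, Nr1d2 and Dbp. The genes were taken by name, with no threshold on their values but with earlier results of these data known, from a table of 24421 genes, of which 11495 were listed at 0 in every tumor and 12926 were analysed. All 10 clock genes were measured in all 10 tumors, and their lowest value was 58 (Dbp). The tumors came from YUMMER1.7, a BRAF-mutant mouse melanoma line, placed under the skin of mice labelled Siah2 KO or of WT mice. The labels give 100000 injected cells, whereas the study's methods give a larger usual number for this line. After 10 days, 5 tumors of each group were taken and their poly(A) RNA was sequenced. Siah2 encodes a ubiquitin ligase, and the genotype label describes the host, so each tumor holds injected cells of the same line in both groups together with host cells. The labels and the study's methods give neither the Siah2 genotype of the injected cells nor the time of day at which each tumor was taken, and the labels give no age or sex of the mice. The study's methods describe its mice in general as males of 6 to 10 weeks with a C57BL/6 background. The strain entries in the labels carry a different number for each tumor and were not used. The comparison of KO-labelled with WT tumors asks how the tumor differs with the host genotype. Whether groups or single tumors also differed in clock phase was asked, but without collection times these genes cannot settle it.

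The circadian clock is a feedback loop of transcription that runs in most cells, including those of skin. Whether it ran in these tumors was not tested. The BMAL1 and CLOCK proteins bind a DNA element, the E-box, and switch on the Per, Cry, Nr1d and Dbp genes. PER and CRY proteins then block BMAL1 and CLOCK, and the nuclear receptors encoded by Nr1d1 and Nr1d2 (REV-ERBα and REV-ERBβ) repress Arntl, Clock and Cry1 through another element, the RORE. DBP, and the related TEF, activate genes such as the Per genes through the D-box, which is also bound by the repressor encoded by Nfil3. In tissues with a running clock, Arntl therefore peaks when Nr1d1 and Dbp are low, and Cry1 peaks later than the Per genes.

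The sequences before the start sites of 4 genes are shown, those of 3 members and of Nfil3. Each holds a match to an element of the loop. They are the 250 bases before the RefSeq start site (build GRCm38.p6, the assembly of mm10), written 5′ to 3′ on the strand of the gene. Capitals mark an E-box (CACGTG), a D-box (TTATGNAA) or a RORE (TAGGTCA), each searched on both strands.
Per3, chr4:151044666-151044915, minus strand: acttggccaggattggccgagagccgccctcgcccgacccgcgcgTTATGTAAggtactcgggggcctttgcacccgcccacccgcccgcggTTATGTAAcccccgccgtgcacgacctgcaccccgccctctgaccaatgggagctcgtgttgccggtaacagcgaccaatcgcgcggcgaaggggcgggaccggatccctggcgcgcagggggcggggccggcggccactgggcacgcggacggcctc
Per1, chr11:69098699-69098948, plus strand: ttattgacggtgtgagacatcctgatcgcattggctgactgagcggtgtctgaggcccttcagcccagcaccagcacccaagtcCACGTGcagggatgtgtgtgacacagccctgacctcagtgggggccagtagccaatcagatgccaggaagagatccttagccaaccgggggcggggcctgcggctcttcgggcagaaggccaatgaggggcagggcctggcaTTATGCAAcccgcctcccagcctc
Cry1, chr10:85185055-85185304, minus strand: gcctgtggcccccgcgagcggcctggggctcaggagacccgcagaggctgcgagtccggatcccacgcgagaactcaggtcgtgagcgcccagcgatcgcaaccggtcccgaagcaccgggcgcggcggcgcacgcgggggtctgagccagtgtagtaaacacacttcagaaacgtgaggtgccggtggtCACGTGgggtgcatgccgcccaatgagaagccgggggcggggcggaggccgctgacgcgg
Nfil3, chr13:52981040-52981289, minus strand: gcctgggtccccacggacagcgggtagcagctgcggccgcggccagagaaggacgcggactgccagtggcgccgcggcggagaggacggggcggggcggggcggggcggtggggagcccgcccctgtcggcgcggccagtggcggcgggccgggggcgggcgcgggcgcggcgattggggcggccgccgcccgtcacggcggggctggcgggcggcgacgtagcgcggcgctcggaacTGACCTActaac
Per3 held a pair of D-boxes, which start 205 and 158 bases before its start site. The Per1 window (the upstream of 2 start sites) held an E-box 166 bases and a D-box 24 bases before the start. Cry1 held an E-box 60 bases before the start, and Nfil3 a RORE 12 bases before it, on the other strand. In windows of 300 bases, from 250 before to 50 after the start, 7.15% of 32851 mouse promoters held an E-box of these letters, 3.38% a D-box and 2.61% a RORE. Of the 10 clock genes, 9 had a promoter sequence and Per2 had none. The windows of Nr1d1, Nr1d2, Dbp, Clock and Cry2 held none of these 3 motifs, and Arntl held a RORE 31 bases after its second start site. Outside the members, E-boxes also lay in the windows of Tef, Ciart and Bhlhe41, which are not shown. A match of letters is a description of the window and says nothing of binding in these tumors.

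Of the 10 clock genes, 6 passed the test between the groups. Per3, Dbp, Per2, Nr1d1 and Nr1d2 were lower in KO-labelled tumors, by between 1.40-fold (Nr1d2) and 3.01-fold (Per3), and Cry1 was 1.49-fold higher. Arntl, Clock, Per1 and Cry2 did not pass. Over all genes tested, 35.6% passed in either direction, 17.5% higher and 18.2% lower, so 5 of 10 members lower stands against 18.2% of all genes, and 1 of 10 higher against 17.5%. The median log2 difference of the 10 genes was −0.33, against −0.00 for all genes. In the same 6 genes no KO-labelled tumor overlapped with a WT tumor, which was so for 24.8% of all genes. The test was limma on log2(value + 1) with p-values adjusted over 12926 genes, and each log2 difference is KO-labelled minus WT on that scale. In whole tumors, fewer cells of a type and less RNA per cell cannot be told apart.

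**Figure D1:**
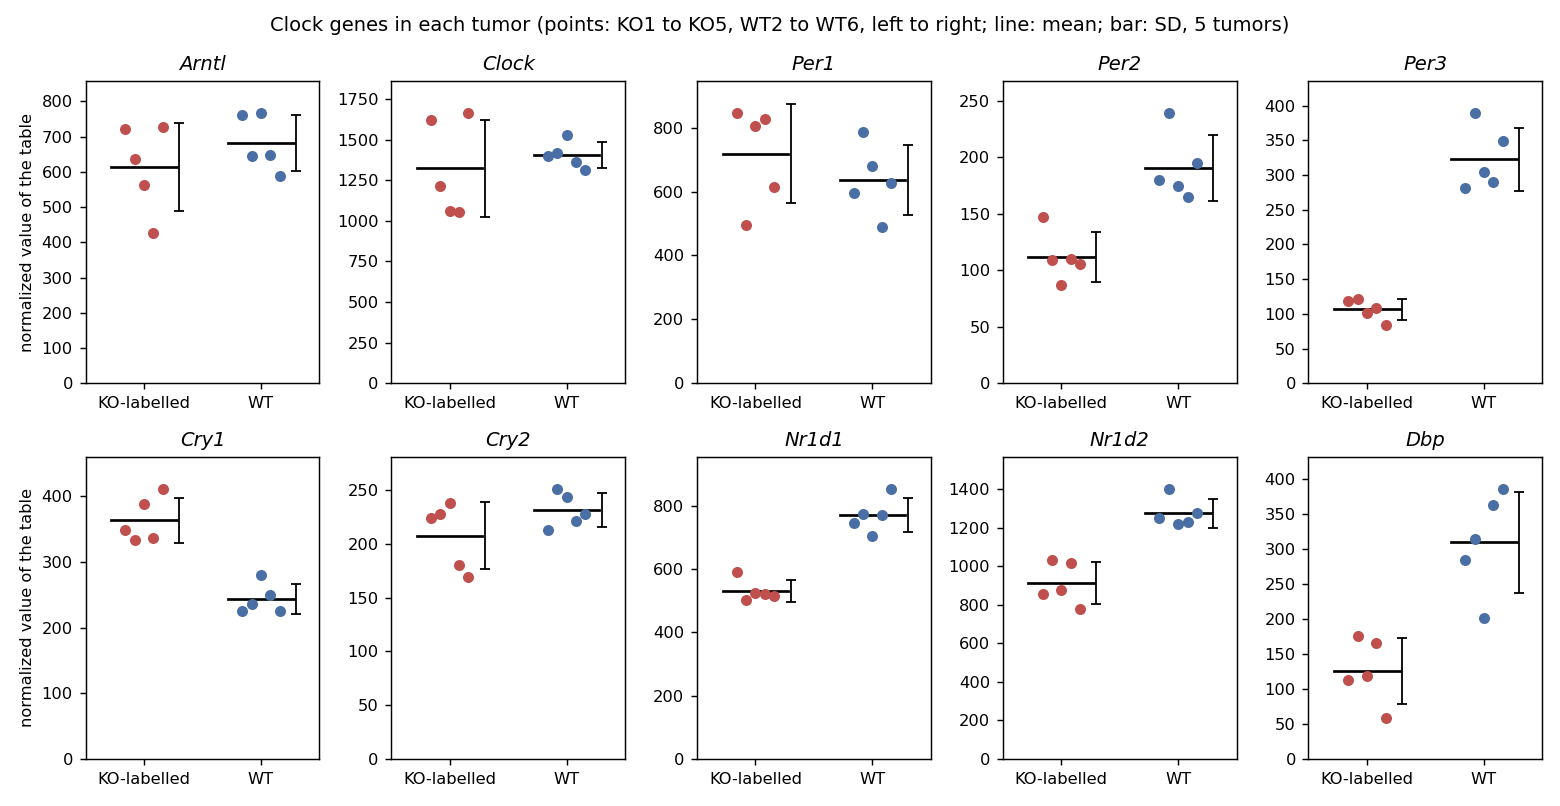
Normalized value (vertical axis, from 0, as deposited) of each clock gene in 5 KO-labelled tumors (red, columns KO1 to KO5 from left to right) and 5 WT tumors (blue, columns WT2 to WT6), with the mean (line) and SD (bar). Per3, Dbp, Per2, Nr1d1 and Nr1d2 are lower and Cry1 is higher in every KO-labelled tumor than in any WT tumor, whereas Arntl, Clock, Per1 and Cry2 overlap.

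Siah2, the gene named in the genotype label, was not lower in the KO-labelled tumors. Its normalized values were 573, 739, 747, 490 and 610 in KO-labelled tumors, against 391, 428, 407, 393 and 408 in WT tumors, a log2 difference of 0.62 (SE 0.112, adjusted p = 0.00104). The transcript therefore did not check the label, and which part of the gene the knockout removes, and whether the counted reads cover it, was not stated in the labels or methods. Values are listed in the order KO1, KO2, KO3, KO4 and KO5 for KO-labelled tumors and 2 to 6 for WT tumors. The columns KO4 and KO5 could not be tied to a replicate number in the titles.

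Among the Per genes, Per3 differed most. Per3 (mm10 chromosome 4, 151003652 to 151044665, minus strand) had normalized values of 118, 121, 101, 109 and 84 in KO-labelled tumors, against 282, 389, 304, 290 and 349 in WT tumors. All KO-labelled values lay within 84 to 121, less than the lowest WT value of 282. The log2 difference was −1.59 (SE 0.129, 95% interval −1.87 to −1.31, adjusted p = 3.64e-06), and the spread within each group was alike, with a coefficient of variation of 14.0% in both. Per2 (mm10 chromosome 1, 91415982 to 91459324, minus strand) had 147, 109, 87, 110 and 106 in KO-labelled tumors, against 180, 239, 175, 165 and 195 in WT tumors. Its groups came closest between replicate 1 of the KO-labelled tumors (147) and replicate 5 of the WT tumors (165), and the log2 difference was −0.77 (SE 0.147, adjusted p = 0.00148). Per1 (mm10 chromosome 11, 69095217 to 69109960, plus strand), which is also induced rapidly by signalling, had 845, 495, 807, 827 and 616 in KO-labelled tumors, against 597, 787, 679, 490 and 627 in WT tumors. The ranges of Per1 overlapped almost completely, and its log2 difference of 0.16 (95% interval −0.18 to 0.51, adjusted p = 0.451) did not pass the test.

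Dbp (mm10 chromosome 7, 45705088 to 45710203, plus strand), an output transcription factor whose transcript cycles with a large amplitude in most tissues, was 2.55-fold lower and the most variable member in both groups. It had normalized values of 113, 176, 119, 166 and 58 in KO-labelled tumors, against 284, 315, 201, 363 and 386 in WT tumors. Column KO5 (58) was the lowest of all tumors and WT replicate 4 (201) was the lowest of the WT tumors, still above the highest KO-labelled value of 176. The log2 difference was −1.35 (SE 0.27, 95% interval −1.93 to −0.77, adjusted p = 0.00205), with a coefficient of variation of 37.4% in KO-labelled and 23.5% in WT tumors. Without column KO5, the log2 difference of Dbp was −1.10. In the annotation, 539 exonic bases of Dbp overlap with Sphk2 on the other strand. Sphk2, a sphingosine kinase gene, moved the other way and was higher in KO-labelled tumors (mean 607 ± 66.8, against 471 ± 23 in WT tumors, SD, n = 5 each, adjusted p = 0.00773).

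The nuclear receptor genes Nr1d1 and Nr1d2 were both lower, with the smallest spread between tumors of the genes that fell. Nr1d1 (mm10 chromosome 11, 98767932 to 98775333, minus strand) had normalized values of 592, 503, 524, 522 and 516 in KO-labelled tumors, against 746, 773, 706, 771 and 853 in WT tumors. Replicate 1 stood above the other 4 KO-labelled tumors, which lay within 503 to 524, and all 5 lay below the lowest WT value of 706. The log2 difference was −0.53 (SE 0.0767, adjusted p = 0.000227). Nr1d2 (mm10 chromosome 14, 18204054 to 18239127, minus strand) had 856, 1033, 876, 1014 and 777 in KO-labelled tumors, against 1248, 1400, 1218, 1227 and 1276 in WT tumors. Columns KO2 and KO4 were the highest of the KO-labelled tumors and came nearest to the WT tumors, and the log2 difference was −0.49 (SE 0.0876, adjusted p = 0.00101). Thra, a thyroid hormone receptor gene that overlaps with 263 exonic bases of Nr1d1 on the other strand, was also lower, with a mean of 588 ± 82.4 in KO-labelled and 1027 ± 83.2 in WT tumors (SD, n = 5 each, log2 difference −0.81, adjusted p = 9.05e-05). The labels and methods state no strand setting for the counting, so reads of Nr1d1 and Thra in that overlap cannot be told apart. Nr1d2 has no such neighbour.

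The cryptochrome genes, whose proteins are the main repressors of BMAL1 and CLOCK, went apart. Cry1 (mm10 chromosome 10, 85131700 to 85185064, minus strand) had normalized values of 349, 333, 388, 336 and 411 in KO-labelled tumors, against 225, 236, 280, 250 and 226 in WT tumors. Each KO-labelled tumor was at 333 or more and each WT tumor at 280 or less, a log2 difference of 0.58 (SE 0.0968, adjusted p = 0.000655). Cry2 (mm10 chromosome 2, 92403646 to 92434043, minus strand) had 224, 228, 238, 180 and 169 in KO-labelled tumors, against 213, 251, 244, 221 and 228 in WT tumors. Only columns KO4 and KO5 lay below the WT range, and the log2 difference of −0.17 (95% interval −0.41 to 0.08, adjusted p = 0.28) did not pass. Cry2 shares 295 exonic bases with a noncoding gene on the other strand that has no value in the table.

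Arntl and Clock, the activators of the loop, did not pass the test, and they varied more among KO-labelled than among WT tumors. Arntl (mm10 chromosome 7, 113207465 to 113314126, plus strand) had normalized values of 721, 636, 563, 426 and 728 in KO-labelled tumors, against 762, 644, 766, 648 and 587 in WT tumors. Column KO4 was lowest and columns KO1 and KO5 stood among the upper WT tumors, with a log2 difference of −0.17 (95% interval −0.47 to 0.14, adjusted p = 0.373). Clock (mm10 chromosome 5, 76209868 to 76304792, minus strand) had 1624, 1217, 1059, 1056 and 1662 in KO-labelled tumors, against 1402, 1416, 1530, 1365 and 1314 in WT tumors. Columns KO1 and KO5 lay above every WT tumor and columns KO2, KO3 and KO4 below every WT tumor, so that the mean log2 difference was −0.11 (95% interval −0.39 to 0.17, adjusted p = 0.516). The coefficient of variation of Clock was 22.6% in KO-labelled and 5.70% in WT tumors. The intervals reach down to −0.47 in Arntl and −0.39 in Clock, and the smallest log2 difference among the members that passed was −0.49, in Nr1d2.

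**Figure D2:**
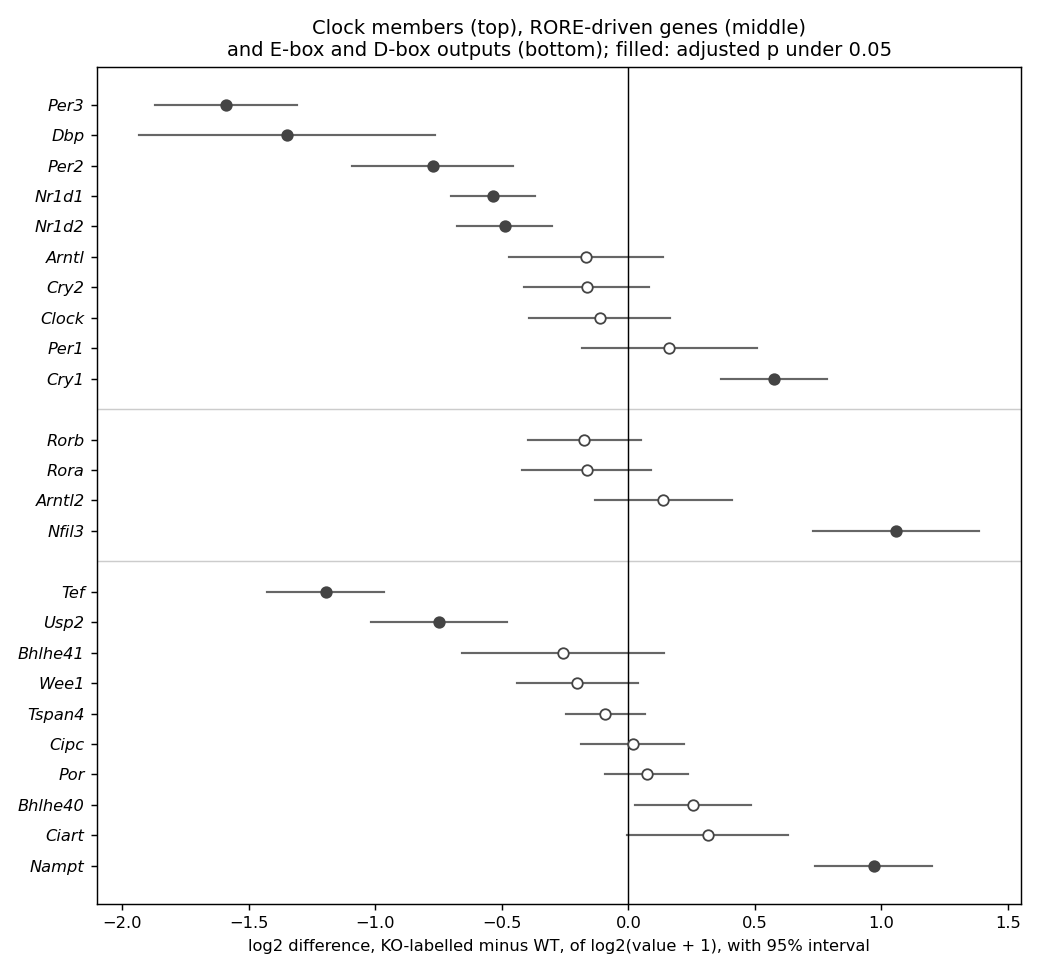
Log2 difference, KO-labelled minus WT, of log2(value + 1) (horizontal axis) with its 95% interval, for the 10 clock members (top), the 4 measured genes of the RORE-driven list (middle) and the 10 measured E-box and D-box outputs (bottom). Filled points passed an adjusted p of 0.05: 5 members lie left of 0 and 1 right of it, Tef (−1.20) lies between Dbp and Per2, and Nfil3 (1.06) is farthest to the right.

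The split of Clock and Arntl among KO-labelled tumors went with the level of long transcripts in general. For the longest 10% of genes (1244 genes with at least 9.98 kb of exons), the median deviation from each gene's mean over tumors was −0.13, −0.29 and −0.30 on the log2 scale in columns KO2, KO3 and KO4. It was 0.13 and 0.07 in columns KO1 and KO5, and 0.07 to 0.17 in WT tumors. Clock has 13.73 kb of exons, the most of the 10 genes, and was low in the same 3 tumors, with deviations of −0.15, −0.35 and −0.35. Arntl (7.52 kb) deviated by −0.01, −0.18 and −0.59 there. After a term for transcript length was taken out of each tumor, a step chosen after the data were seen, Clock had a log2 difference of 0.12 (adjusted p = 0.21) and Arntl of −0.04 (adjusted p = 0.819). Without columns KO2, KO3 and KO4, Clock was higher in the remaining KO-labelled tumors, by 0.23 (adjusted p = 0.0286), and Arntl had a log2 difference of 0.10 (adjusted p = 0.53). The direction of Clock therefore turned with these tumors, whereas the other 6 calls were the same under both steps. Per3 (9.61 kb) had log2 differences of −1.68 to −1.42 over 21 alternatives. What made long transcripts low in these tumors was not tested.

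**Figure D3:**
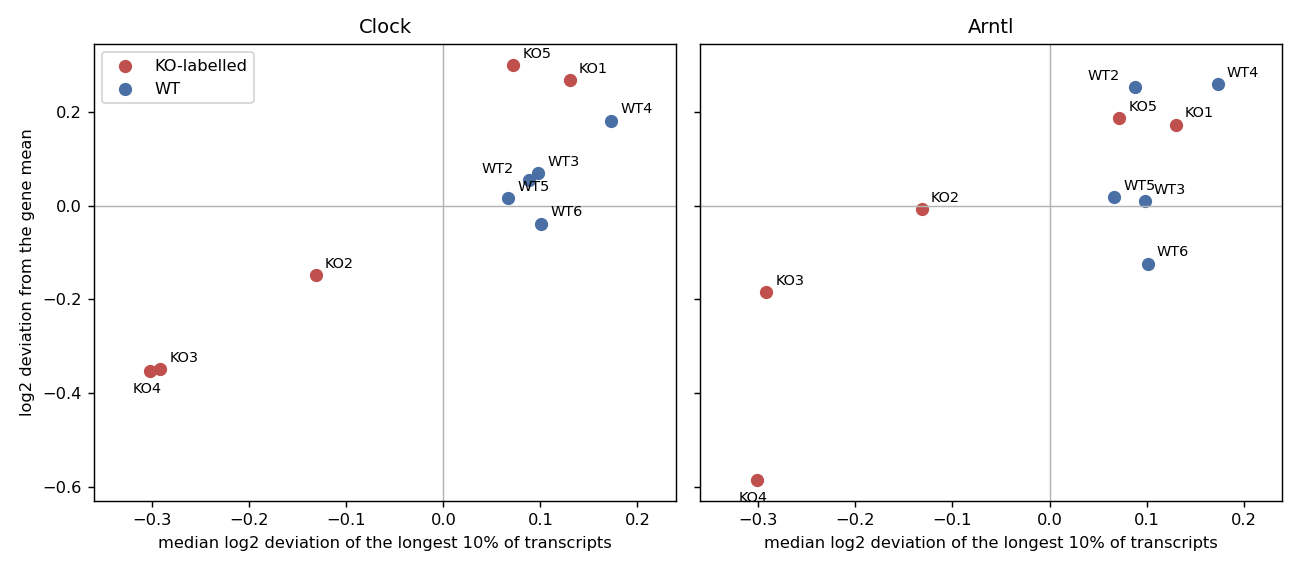
Log2 deviation of Clock (left) and Arntl (right) from the gene's mean over 10 tumors (vertical axis) against the median log2 deviation of the longest 10% of transcripts in that tumor (horizontal axis), for 5 KO-labelled (red) and 5 WT tumors (blue). KO2, KO3 and KO4 lie left of 0 on the horizontal axis and below 0 for both genes, and the other 7 tumors lie right of 0.

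Per kb of exons, the levels of the clock genes were ordered alike in both groups at the top. The mean normalized value per kb in KO-labelled tumors was 173 for Nr1d1, 168 for Nr1d2, 128 for Per1, 109 for Cry1, 96.4 for Clock, 81.7 for Arntl, 42.2 for Dbp, 32.9 for Cry2, 19.1 for Per2 and 11.1 for Per3. In WT tumors it was 250 for Nr1d1, 235 for Nr1d2, 113 for Per1, 104 for Dbp, 102 for Clock, 90.6 for Arntl, 72.9 for Cry1, 36.6 for Cry2, 33.6 for Per3 and 32.6 for Per2. Cry1 stood in place 4 in KO-labelled and place 7 in WT tumors, and Dbp in place 7 in KO-labelled and place 4 in WT tumors. Neighbours such as Nr1d1 and Nr1d2, and in WT tumors Dbp and Clock or Per3 and Per2, differed by less than the spread between tumors.

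To ask whether the tumors stood at different clock phases, the genes other than Cry2 were put into arms. The first arm held Dbp and the Nr1d and Per genes, and the second the REV-ERB targets Arntl, Clock and Cry1. Genes within an arm need not peak at the same time. A phase index was taken for each tumor, as the mean centred log2 value of Dbp, Nr1d1, Nr1d2, Per1, Per2 and Per3 minus that of Arntl, Clock and Cry1. The index was −0.46, −0.33, −0.38, 0.02 and −1.01 in KO-labelled tumors, against 0.33, 0.65, 0.12, 0.37 and 0.68 in WT tumors. All KO-labelled tumors lay below all WT tumors, although column KO4 (0.02) and WT replicate 4 (0.12) lay close together. The index is made of the members compared above, so this separation repeats their differences and is not a further result. The mean was −0.43 ± 0.372 in KO-labelled and 0.43 ± 0.235 in WT tumors (SD, n = 5 each), a difference of −0.86. Centring over all tumors makes these means equal in size and opposite in sign. The Dbp, Nr1d and Per arm was lower in KO-labelled tumors by a mean difference of −0.76. The arm of Arntl, Clock and Cry1, which is subtracted, differed by 0.10, and in it the groups overlapped. Within that second arm the genes did not move together, since Cry1 was higher by 0.58 while Arntl and Clock had differences of −0.17 and −0.11. As the index is a score over the members, no test was run on it. Without collection times, a difference in the time at which the groups were collected and a difference between the hosts cannot be told apart.

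**Figure D4:**
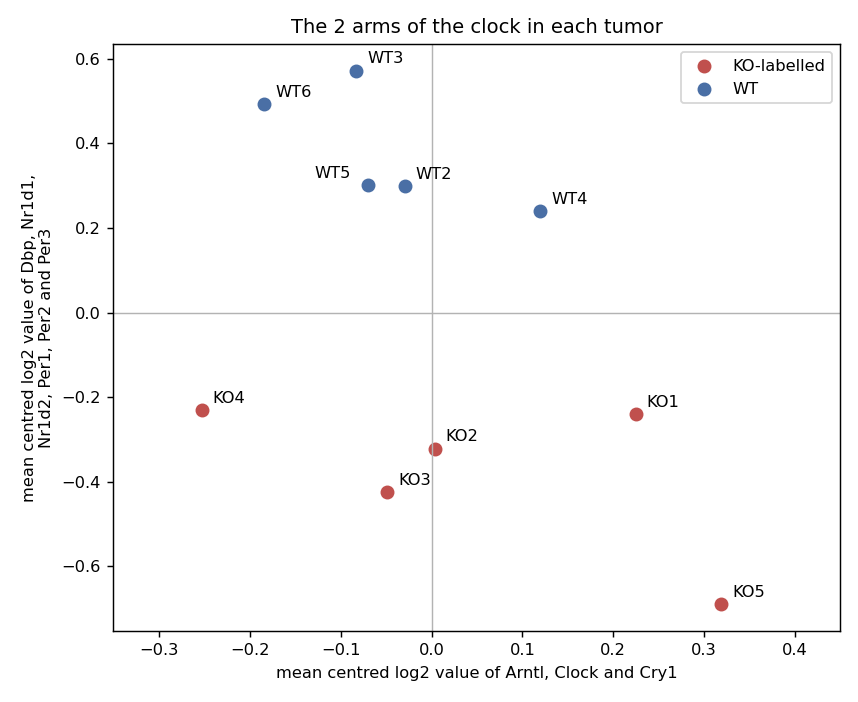
Mean centred log2 value of Dbp, Nr1d1, Nr1d2, Per1, Per2 and Per3 (vertical axis) against that of Arntl, Clock and Cry1 (horizontal axis) in each of 5 KO-labelled tumors (red) and 5 WT tumors (blue). The groups are separate on the vertical axis and overlap on the horizontal axis, and KO5 lies at the lower right.

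Within each group, the order of single tumors was opposite between some genes of the arms and not between others. In WT tumors, Nr1d1 was ordered opposite to Arntl in 10 of 10 pairs of tumors, which was so for 0.634% of all genes, and Dbp in 9 of 10 pairs, which 3.23% of all genes reached or passed. WT replicate 4 had the highest Arntl, Clock and Cry1 and the lowest Nr1d1, Nr1d2 and Dbp of the WT tumors. WT replicate 6 had the highest Nr1d1 and Dbp and the lowest Arntl and Clock. The median deviation of the longest 10% of genes was also highest of the WT tumors in replicate 4 (0.17), whereas in replicate 6 it was 0.10, the next highest. The part of long transcripts in the order of WT tumors was not tested. WT replicate 3 had the highest Per1, Per2, Per3, Cry2 and Nr1d2. In KO-labelled tumors, column KO5 had the highest Arntl, Clock and Cry1 and the lowest Dbp, Nr1d2, Per3 and Cry2. Dbp and Nr1d2 were in the same order in 10 of 10 pairs of KO-labelled tumors, for which the share of all genes was not counted. Each was ordered opposite to Arntl in 8 of 10, which 21.2% of all genes reached or passed. Among KO-labelled tumors, Arntl was lower in columns KO2, KO3 and KO4, where long transcripts were low, than in columns KO1 and KO5. The order of Arntl there cannot be told apart from that of long transcripts. Nr1d1 was opposite to Arntl in 5 of 10 pairs there, and Nr1d1 and Nr1d2, of the same arm, were in opposite order in 7 of 10. Per2 was opposite to Arntl in 5 of 10 pairs of KO-labelled and 7 of 10 pairs of WT tumors, and Per3 in 6 and 7 of 10. With 5 tumors in a group, these orders are descriptions and no correlation was computed, and the pairs of tumors are not independent of each other.

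**Figure D5:**
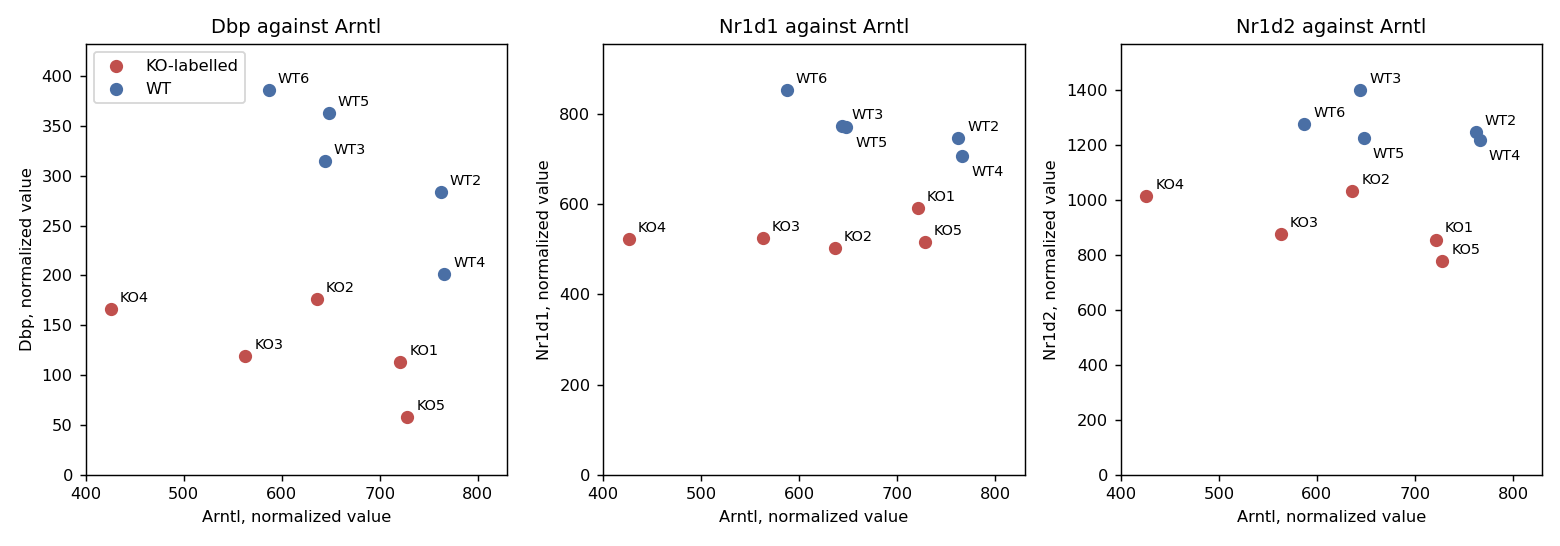
Normalized values of Dbp (left), Nr1d1 (middle) and Nr1d2 (right) on the vertical axes, from 0, against that of Arntl on the horizontal axes, which do not start at 0, in 5 KO-labelled (red) and 5 WT tumors (blue). Among WT tumors the genes mostly stand lower where Arntl is higher. All KO-labelled values of Dbp, Nr1d1 and Nr1d2 lie below all WT values, whatever the level of Arntl.

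Genes next to the members in the loop were taken from 3 lists, in which 39 of 42 genes were measured. Of these, 4 were higher and 5 lower in KO-labelled tumors, 30 did not pass, and the median log2 difference was −0.09. The 9 called of 39 are a smaller share than the 35.6% of all genes. Nfil3, the RORE-driven repressor of D-box genes, was 2.08-fold higher. It had normalized values of 631, 674, 997, 583 and 526 in KO-labelled tumors, against 334, 356, 330, 321 and 262 in WT tumors (log2 difference 1.06, SE 0.152, adjusted p = 0.000223). Replicate 3 stood above the other KO-labelled tumors, and the groups did not overlap. The other measured genes of the RORE-driven list, Arntl2, Rora and Rorb, did not pass, with log2 differences of 0.14, −0.17 and −0.17. Npas2 was listed at 0 in every tumor.

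Tef, the D-box activator related to Dbp, was 2.29-fold lower in KO-labelled tumors. It had normalized values of 822, 959, 828, 1055 and 739 in KO-labelled tumors, against 1800, 2424, 1924, 1891 and 2031 in WT tumors (log2 difference −1.20, SE 0.107, adjusted p = 7.02e-06). Column KO5 was lowest in Tef as in Dbp, and WT replicate 3 was highest as in Per3. Of the 10 measured E-box and D-box outputs, Usp2, which encodes a deubiquitinase, was also lower (mean 142 ± 14.5 in KO-labelled and 240 ± 37.9 in WT tumors, SD, n = 5 each, log2 difference −0.75, adjusted p = 0.000624). Nampt, the rate-limiting enzyme of NAD salvage and an E-box target that is also induced in inflammation, was 1.96-fold higher, with a mean of 7792 ± 1186 in KO-labelled and 3956 ± 386 in WT tumors (adjusted p = 3.51e-05). The repressor genes Ciart, Bhlhe40 and Bhlhe41 did not pass, with log2 differences of 0.31 (adjusted p = 0.113), 0.26 (adjusted p = 0.0769) and −0.26 (adjusted p = 0.291). Ciart, which held 3 E-boxes in its window, had values of 109, 98, 117, 79 and 86 in KO-labelled tumors, against 64, 85, 80, 90 and 72 in WT tumors. It passed under 1 of 20 alternatives only, the fit without columns KO4 and KO5 (adjusted p = 0.035). These columns held its lowest KO-labelled values. Wee1, Tspan4, Por and Cipc had log2 differences between −0.20 and 0.07 and did not pass.

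Among 25 genes for kinases, ubiquitin ligases and cofactors that act on clock proteins, 2 were higher and 3 lower in KO-labelled tumors, a share below the 35.6% of all genes. Csnk1e, a kinase that phosphorylates PER proteins, was higher (mean 2277 ± 324 in KO-labelled and 1745 ± 46.4 in WT tumors, SD, n = 5 each, log2 difference 0.37, adjusted p = 0.00641). Btrc, the F-box protein that recognises phosphorylated PER proteins, was lower (mean 381 ± 26.8 in KO-labelled and 529 ± 23.5 in WT tumors, log2 difference −0.47, adjusted p = 0.000538), and did not pass with the length term (adjusted p = 0.0995). Prkaa1, a catalytic subunit of the AMP-activated kinase, was higher by 0.21 (adjusted p = 0.0276), and did not pass under 9 of 21 alternatives. Crebbp, a coactivator with a long transcript, was lower by a log2 difference of −0.69 (adjusted p = 0.0225), with values of 727, 444, 313, 284 and 559 in KO-labelled tumors and 647 to 738 in WT tumors. Its low values fell in the same columns KO2, KO3 and KO4 as those of Clock, and without them the difference was −0.15 (adjusted p = 0.3).

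For each member, the genes outside the list with the most similar profile over 10 tumors were found by the root mean square difference of centred log2 values. The closest match of any lower member was between Per3 and Cd248, which encodes a surface protein of pericytes and fibroblasts (0.0622). Cd248 had a mean of 499 ± 48.1 in KO-labelled and 1537 ± 194 in WT tumors, with a log2 difference of −1.62 against −1.59 for Per3. The second gene most like Per3 was Agmo (0.15), with a mean of 42 in KO-labelled and 119 in WT tumors. Dbp was most like Notum and the elastin gene Eln, but with larger differences of 0.34 each, and its nearest member was Per3 at 0.39. Per2 was most like Tfap2b and the endothelial gene Vwf (0.13 each). Nr1d1 was nearest to Iqce (0.0720) and Ctdsp2, and Nr1d2 to Brd3 (0.0750) and Hadh, while the distance between Nr1d1 and Nr1d2 was 0.16. Cry1 was most like D16Ertd472e and the nucleolar gene Nop2 (0.10 each). Arntl was nearest to Hcfc2 and Jmjd1c (0.08 each), and Clock to Dnajc13 and Caprin1 (0.06 each). Per1 was nearest to Tmem104 and Gclc, and Cry2 to Sox7 and Dnajb14.

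Markers of the cells in the tumor differed between the groups together with the clock genes. Of 12 fibroblast and pericyte markers, 10 were lower and 2 higher, where 35.6% of all genes passed in either direction. Their summed value was 83289 to 113984 in KO-labelled and 169928 to 194512 in WT tumors. Sums here and below follow the most abundant genes of a list, such as Col1a2 and Col3a1 here, and are not cell numbers. Fap, a protease of activated fibroblasts, was 4.23-fold lower (adjusted p = 1.13e-06) and Pdgfrb, a pericyte receptor, 2.56-fold lower (adjusted p = 1.13e-06). Dcn and Thy1 of the same list were 1.64-fold and 1.88-fold higher (adjusted p = 0.00359 and 0.000226). Of 9 measured T and NK cell markers, 8 were higher, with sums of 6217 to 9667 in KO-labelled and 2270 to 2998 in WT tumors, and Trac was listed at 0. Gzmb and Nkg7, of cytotoxic cells, were 4.16-fold and 2.65-fold higher. Gzmb alone had 4160 to 6797 in KO-labelled and 1090 to 1662 in WT tumors, a large part of these sums. The sums of 10 macrophage and monocyte markers were 41152 to 65261 in KO-labelled and 42236 to 46446 in WT tumors, and 5 were higher and 1 lower. Of 8 endothelial markers, 2 were higher and 4 lower, with sums of 3296 to 4550 in KO-labelled and 4348 to 4920 in WT tumors. None of 8 skeletal muscle markers passed, with sums of 2588 to 5516 in KO-labelled and 1703 to 5303 in WT tumors. The melanocyte markers Pmel, Dct, Tyr, Tyrp1, Mlana and Sox10 were listed at 0 in all tumors. Of the other 2 melanocyte markers, S100b, a calcium-binding protein gene that other cell types also express, had 7, 29, 8, 15 and 3 in KO-labelled tumors, against 63, 116, 78, 71 and 73 in WT tumors (log2 difference −2.90, adjusted p = 0.00029), and Mitf was measured at 278 to 409 in KO-labelled and 277 to 406 in WT tumors. The adipocyte markers Adipoq, Plin1, Lep and Cidec and the keratinocyte markers Krt5, Krt14, Krt1, Lor and Trp63 were listed at 0. Of the measured members of these lists, Pparg was higher (mean 70.6 ± 33.9 in KO-labelled and 33.4 ± 6.88 in WT tumors, SD, n = 5 each, adjusted p = 0.0246). Fabp4 (839 ± 323 in KO-labelled and 557 ± 191 in WT tumors, adjusted p = 0.0754) and Krt10 (75.6 ± 25.0 in KO-labelled and 77.6 ± 10.0 in WT tumors, adjusted p = 0.763) did not pass. The part of these cell types in the clock gene differences was not tested.

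Genes driven by signals that also reach Per1 and Per2, the stress, glucocorticoid and temperature responses, were set beside the members. Of 13 immediate early genes, 10 were higher and 1 (Egr3) lower in KO-labelled tumors, where 35.6% of all genes passed. Their sums were 14869 to 17874 in KO-labelled and 10023 to 12321 in WT tumors. Atf3 and Fos, transcription factors of the early stress response, were 3.18-fold and 3.65-fold higher (adjusted p = 2.08e-05 and 0.000123). Of 9 measured glucocorticoid targets, Sgk1 was higher, Fkbp5, Klf9 and Ddit4 were lower and 5 did not pass, so that 4 of 9 passed, near the 35.6% of all genes. Klf9 missed the threshold under 11 and Ddit4 under 7 of 21 alternatives. Fkbp5, a chaperone of the glucocorticoid receptor, had 3650, 3584, 2258, 2772 and 2538 in KO-labelled tumors, against 6640, 8564, 7038, 4400 and 4450 in WT tumors. WT replicate 3, which had the highest Per genes, also had the highest Fkbp5 and Klf9 and the highest sum of muscle markers of the WT tumors. Of 8 temperature-responsive genes, 4 heat shock genes were higher and none lower, among them Hsp90aa1 (log2 difference 0.56, adjusted p = 0.000192). Of 8 proliferation genes only Mki67 passed, with a log2 difference of −0.68 (adjusted p = 0.0185). Mki67, a long transcript as well, had 3409, 2308, 1546, 2041 and 3721 in KO-labelled tumors and 3549 to 4471 in WT tumors, and without columns KO2, KO3 and KO4 the difference was −0.15 (adjusted p = 0.238). The part of stress, glucocorticoid or temperature signals in the clock gene differences was not tested.

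The 6 calls among the members held under all 21 alternatives, which include leaving out each tumor in turn. The p-values set the difference between the groups against the spread between tumors within them. The labels do not tie tumors to cages, litters or days, so any of these that differed between the groups cannot be told apart from genotype.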

How the data were processed

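Per the study's methods, the authors prepared poly(A) RNA of whole tumors with a directional kit, sequenced single-end reads, ran FastQC, aligned to mm10 (STAR), counted reads of each gene (featureCounts) and ran edgeR through SARTools. Neither tool versions nor a strand setting is stated. The deposited score of each gene and tumor is a read count that the authors normalized between libraries and rounded to a whole number, so the scores are not raw counts. The scores of a tumor summed to between 15605574 and 16503134 in the 5 KO-labelled tumors and between 15414758 and 15527530 in the 5 WT tumors. Raw depth is not given, so counting error has no interval here.

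A count model, which the study used, is not suited to such scores. Instead log2(score + 1) of the 12926 genes not at 0 in every tumor was tested with limma 3.58.1 (R 4.3.3; intercept and genotype, eBayes with trend), and p-values were adjusted over all of them by Benjamini-Hochberg (threshold 0.05). The fold changes are on the log2(score + 1) scale, which understates changes of low genes. Why 11495 genes were listed at 0 is not known, so a 0 was not read as absence. Lengths (GENCODE M21) were found for 96.2% of the genes tested. Promoters came from RefSeq (GRCm38.p6). Python 3.11.15, NumPy 2.4.6, pandas 2.3.3, SciPy 1.17.1 and Matplotlib 3.10.9 were used.

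Groups came from the sample titles. The titles number the KO tumors 1, 2, 3, 5 and 6 and the columns 1 to 5, so columns KO4 and KO5 have no settled number. The members and gene lists were chosen with earlier results of these data known. Named were the 10 members, Siah2, up to 4 genes past the threshold with the smallest p in each other list, any measured gene of the RORE-driven and the E-box and D-box lists, and the 2 genes most like each member. Thra and Sphk2 were named because they overlap with members, and Mitf, Fabp4 and Krt10 as the measured marker genes that did not pass in their lists. Dcn and Thy1 were named as the fibroblast markers that were higher, and Col3a1 for its part in the marker sum. The alternatives were another pseudocount (10), a minimum mean of 100, other scalings, no trend, library weights, each tumor left out, columns KO4 and KO5 left out and a replicate block. A length term, leaving out columns KO2, KO3 and KO4, and a fit of the tumors numbered 2 and 3 without a block were added after the data were seen.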

Additional observations from a re-analysis of the deposited data

Results flagged for a closer look

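Within each group of 5 tumors, the highest and lowest value of each clock gene was compared with the rest by Dixon's ratio (limit 0.71), which chance passes in about 1 of 20 groups. Among the 10 members, 1 of 20 groups passed: Nr1d1 at 592 in Siah2 KO replicate 1, above the other KO-labelled tumors. With the other measured genes of the RORE-driven and output lists, 4 of 48 groups passed. Arntl2, a relative of Arntl, stood at 483 in Siah2 KO replicate 3, above the other KO-labelled tumors, and at 267 in WT replicate 6, below the other WT tumors. Bhlhe40, an E-box repressor gene, stood at 1158 in WT replicate 6, below the other WT tumors.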

How the results depend on the processing

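The calls of Per3, Dbp, Per2, Nr1d1, Nr1d2 and Cry1 kept their direction and passed under all 21 alternatives, so that 6 members passed in each, or 7 without columns KO2, KO3 and KO4, where Clock passed as well. Among the 4 members that did not pass, some changed sign. Without columns KO2, KO3 and KO4, Arntl had a log2 difference of 0.10 and Clock of 0.23, and with the length term Clock had 0.12. In these columns long transcripts were low. Per1 had −0.12 and Cry2 0.011 in the 4 tumors numbered 2 and 3. Whether the replicate numbers pair the tumors could be looked at only for numbers 2 and 3, and is not known. Tumors of the same number deviated together with correlations of 0.035 and 0.050, and those of different numbers with 0.114 and 0.024. With a replicate block on these 4 tumors, 3902 genes passed, and without the block 2938, fewer tumors entering both fits. Leaving out 1 tumor gave 3649 to 5182 genes past the threshold, against 4606 with all tumors, 7 to 12 of the other clock genes, against 9, and a phase index difference of −0.974 to −0.716. With equal column totals, 1794 genes were higher and 2853 lower, against 2259 and 2347, and the members' calls were the same. Named genes of other lists had 45 of 857 values that no longer passed, Klf9 and Prkaa1 most often. The smallest values, as of Dbp, carry the largest relative counting error.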
